A study of Mus musculus with 2 samples.

Results

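A set of 10 genes of V(D)J recombination and of the first steps of the B lineage was followed in mouse LSK cells, which lack lineage markers, carry Sca-1 and c-Kit, and include the stem cells and multipotent progenitors of the blood. The set held Dntt, Rag1, Rag2, Vpreb1, Igll1, Blnk, Bank1, Ebf1, Pax5 and Ly6d, out of 20655 genes that could be named on the array. The members were chosen by symbol, with earlier results of these data known. All 14 of their probes are described, 1 probe for each of 6 genes and more than 1 for each of the other 4. The adult group was 1 array of wild-type bone marrow LSK cells from mice of 8 weeks, labelled C57BL/6 and without transplantation. The fetal group was 1 array of wild-type fetal liver LSK cells from E14.5, also without transplantation, for which no strain was used here. Both were sorted by flow cytometry from freshly isolated tissue, and the sources used here do not give the number of animals behind each array. Tissue and age changed together between the groups, and the arrays lay on different slides, so tissue, age and slide cannot be told apart. With 1 array per group no difference has a replicate check and no test or p-value is given.

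As background, B and T cell receptor genes are assembled from gene segments by V(D)J recombination. The RAG1 and RAG2 proteins form the recombinase that cuts the DNA, terminal deoxynucleotidyl transferase (encoded by Dntt) adds untemplated nucleotides at the joints, and the end-joining machinery seals them. Receptors made in fetal life are known to carry few such added nucleotides. A rearranged heavy chain then pairs with the surrogate light chain, made by Vpreb1 and Igll1, in the pre-B cell receptor, and the adaptor encoded by Blnk passes its signal on. Ebf1 and Pax5 encode the transcription factors that specify B lineage cells and commit them, and Ly6d marks lymphoid progenitors that lean towards the B lineage. Most of these genes are switched on in progenitors that come after the LSK stage.

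RefSeq promoter windows were matched for 9 of the 10 genes. The 4 below, of build GRCm38.p6, are shown because the results turn on them: Dntt and Blnk, neighbours on chromosome 19 that were both far higher in bone marrow, and the neighbours Rag1 and Rag2. Each runs 5′ to 3′ from 170 bases before to 30 bases after the transcription start. The Dntt window is chr19:41029105-41029304 (plus strand), the Blnk window chr19:40994192-40994391 (minus strand), the Rag1 window chr2:101649503-101649702 (minus strand) and the Rag2 window chr2:101624542-101624741 (plus strand). Capitals mark matches, on either strand, to the E-boxes CAGGTG and CAGCTG, the TATA box TATAAA, the EBF core CCCNNGGG, the Ikaros core TGGGAA or the PU.1 core GAGGAA.
Dntt: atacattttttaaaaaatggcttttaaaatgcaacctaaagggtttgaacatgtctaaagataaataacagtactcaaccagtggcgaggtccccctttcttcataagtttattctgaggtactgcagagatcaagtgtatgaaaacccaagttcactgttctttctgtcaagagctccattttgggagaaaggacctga
Blnk: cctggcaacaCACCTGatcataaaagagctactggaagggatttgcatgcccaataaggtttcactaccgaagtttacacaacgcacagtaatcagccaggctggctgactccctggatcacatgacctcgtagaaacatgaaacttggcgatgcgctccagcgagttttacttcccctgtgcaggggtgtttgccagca
Rag1: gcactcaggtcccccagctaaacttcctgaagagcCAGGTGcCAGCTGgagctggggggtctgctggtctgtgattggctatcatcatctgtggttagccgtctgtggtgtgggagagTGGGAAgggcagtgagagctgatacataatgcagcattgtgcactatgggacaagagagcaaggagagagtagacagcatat
Rag2: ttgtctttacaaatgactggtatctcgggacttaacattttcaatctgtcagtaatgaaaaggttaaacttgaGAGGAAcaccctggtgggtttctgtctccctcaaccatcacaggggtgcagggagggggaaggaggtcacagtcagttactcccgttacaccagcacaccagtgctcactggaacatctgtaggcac

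The Dntt window held 0 matches. The Blnk window held 1, an E-box on the opposite strand that begins at position -160 from the start, and the Rag2 window held 1, a PU.1 core at -97. The Rag1 window held 3, namely both E-boxes at -135 and -128 and an Ikaros core at -52. Over the longer windows of 250 bases before to 50 after the start, CAGGTG was found in 5 of the 9 genes and in 20.2% of 32851 promoters of that length. GAGGAA was found in 4 of the 9 and in 28.3% of all promoters. CAGCTG, CCCNNGGG and TGGGAA were each found in 2 of the 9, against 16.3%, 13.7% and 25.6% of all promoters, and TATAAA in 1 of the 9, against 13.6%. A match of such short letters is a description of the sequence and does not show a binding site.

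The values below are the processed signals of the image software, in its own linear units after background subtraction, given for bone marrow and then for fetal liver. Each array was divided by its 75th percentile, and a difference is the fetal liver value minus the marrow value in log2, so that negative numbers are higher in bone marrow. The value after ± is the technical error derived from the image software and covers no biological spread. A probe is called dim where it was not well above background by the software's own flag. Where a gene was dim on 1 array, its difference is a bound set against the lowest signal well above background on that array, which was 12.4 for bone marrow and 9.82 for fetal liver, or against its own signal if that was higher. By that flag 47.4% of probes were well above background in marrow and 46.4% in fetal liver. A gene is counted towards a group when its signal there was higher by 2-fold or more. Of the 10 genes, 7 were well above background on at least 1 array, 5 on both, and Igll1, Ebf1 and Pax5 on neither. Of these 7, Dntt, Blnk and Ly6d counted towards bone marrow, 3 genes (42.9%) against a background of 8.12% of the 13386 genes measured. Bank1 and Rag2 counted towards fetal liver, 2 genes (28.6%) against a background of 6.69%. These backgrounds are 1087 and 896 genes, and scaling on the spike-in controls in place of the percentile gave 1739 and 508. Because the 10 genes were chosen with earlier results of these data known, the shares of 42.9% and 28.6% describe the set and do not test it. Vpreb1 and Rag1 differed by less than 2-fold. The 7 differences ran from -10.77 to 3.12 with a median of -0.75, while the median of all genes measured was 0.11.

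**Figure D1:**
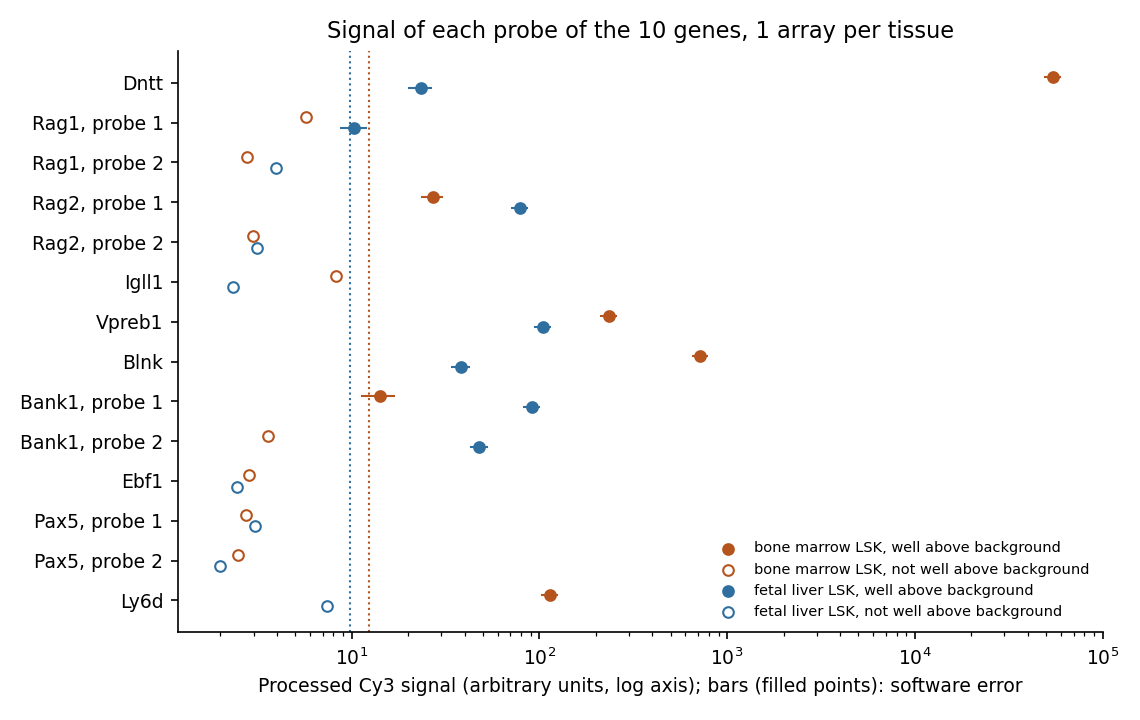
Processed signal (log axis, arbitrary units of the image software) of each of the 14 probes in bone marrow and in fetal liver LSK cells, 1 array each. Filled points are well above background and open points are not, bars on filled points are the software's error, dotted lines mark each array's lowest signal well above background, and the widest gap is that of Dntt, at 54329 against 23.4.

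Dntt, the terminal transferase, read 54329 in marrow against 23.4 in fetal liver. The bone marrow spot was bright but not saturated, and the fetal liver spot was faint yet well above background: the brightest of 295 negative control spots on that array read 3.31. The difference was -10.77 ± 0.25, or 1743-fold, and it was the first of all 13386 genes when ordered from the bone marrow side. With another background correction (normexp, which adds an offset that shrinks differences of faint probes) it was -8.96. The gene has 1 probe on this array, so no other probe bears on its value.

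Rag1 and Rag2, the recombinase genes, did not share this pattern. The first Rag2 probe read 27.0 in marrow against 78.9 in fetal liver, both well above background, a difference of 1.96 ± 0.25, or 3.90-fold higher in fetal liver. This placed Rag2 at position 227 of 13386 from the fetal liver side. Its other probe, printed as 10 spots, was dim on both arrays, with bone marrow spots between 2.55 and 3.92 (median 2.86) and 9 fetal liver spots between 2.13 and 5.78 (median 2.47). A further fetal liver spot, marked as an outlier by the software, read 32.6 and was left out. The pair of Rag2 probes therefore differ in whether the gene was detected at all, and the 3.90-fold value rests on the first. Rag2 was 1.04 with normexp and 1.02 as the mean over its probes, both just past 2-fold. For that mean, the dim second probe was set to each array's lowest signal well above background. After scaling, this level lay slightly higher for fetal liver, and 1.02 passes 2-fold only through it.

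Rag1 was close to the background on both arrays. The 2 spots of its first probe read 5.10 and 6.31 in bone marrow, neither well above background, and 8.11 and 12.6 in fetal liver, where 1 of the 2 was well above background. After scaling, the fetal liver mean of 10.3 set against the lowest bone marrow signal well above background gave a bound of 0.16, or at least 1.12-fold towards the fetal liver. The second Rag1 probe was dim in both groups, with spots of 2.75 and 2.77 in bone marrow and 3.92 and 3.97 in fetal liver. Rag1 was thus not resolved between the groups at this signal.

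Most other recombination genes, like most genes measured, differed by less than 2-fold. Of 13 genes of V(D)J recombination and end joining, all were measured. Of these, 0 counted towards marrow and 2 towards fetal liver, against 8.12% and 6.69% of all genes measured. The 2 were Polm and Lig4. Polm encodes DNA polymerase mu, the relative of terminal transferase that fills gaps during end joining. Its signals were 36.7 and 123, a difference of 2.16 ± 0.23, or 4.48-fold higher in fetal liver, which was 1.16 with normexp. Lig4 encodes the ligase that seals the broken ends. Its signal was 8.96 (dim) in marrow against 38.2 in fetal liver, a bound of at least 4.13-fold that fell under 2-fold with normexp (0.80). Of the 13 differences, 10 were above 0 and 3 below, with a median of 0.38. Spike-in scaling moved all genes by -0.33 and left 9 above 0 with a median of 0.05.

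**Figure D2:**
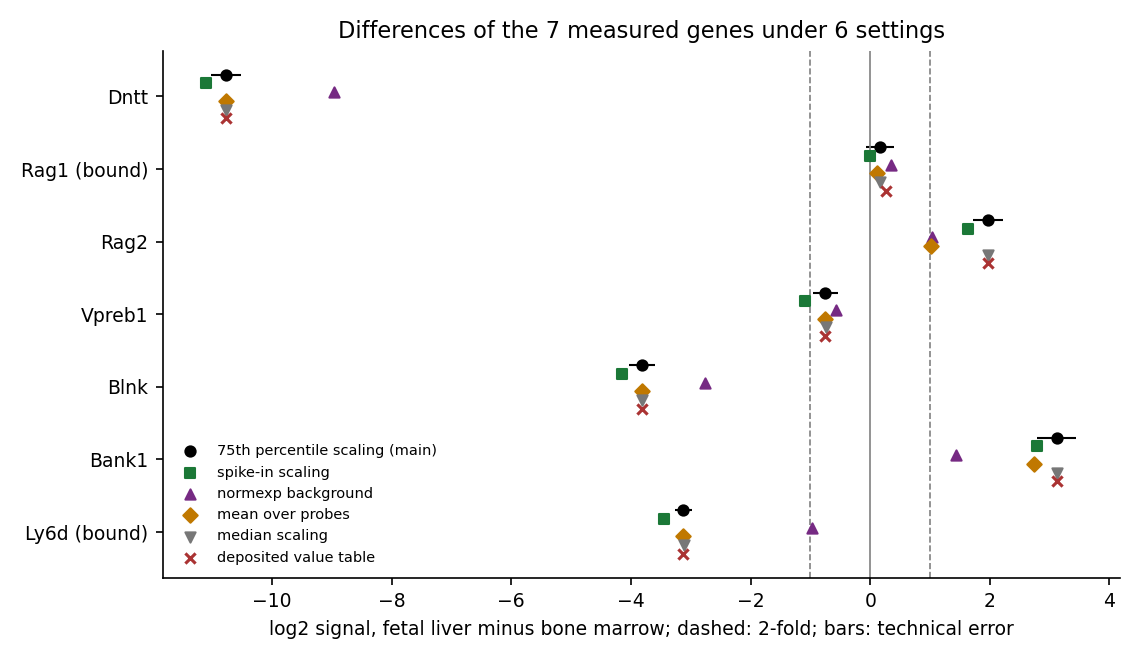
Log2 difference, fetal liver minus bone marrow, of the 7 genes measured on at least 1 array, under 6 processing settings (symbols in the key). Dashed lines mark 2-fold, bars the technical error, and Dntt and Blnk lie below the lower line under every setting drawn.

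Vpreb1, which encodes a part of the surrogate light chain, was measured on both arrays, at 234 in marrow against 104 in fetal liver. The difference of -0.75 ± 0.21, or 1.68-fold higher in bone marrow, was under 2-fold, and scaling on the spike-in controls took it past 2-fold at -1.08. Vpreb2, a near-identical copy of Vpreb1 with which its probe may share signal, read 28.1 and 17.7, a difference of -0.25 ± 0.31 that turned to 0.09 with normexp. Igll1, which encodes the other part of the surrogate light chain, read 8.29 and 2.34 and was dim on both arrays. Of the surrogate light chain genes, Vpreb1 was therefore measurable here, with possible signal from Vpreb2, and a difference in Igll1 was not detectable.

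Blnk, the adaptor that links the pre-B and B cell receptors to their downstream enzymes, read 719 in marrow against 38.2 in fetal liver. Both were well above background, and the difference was -3.82 ± 0.22, or 14.1-fold higher in bone marrow. It stood at position 38 of 13386 from the bone marrow side, and was -2.76 with normexp.

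Bank1, a scaffold protein of B cell receptor signalling, went the other way. Its first probe read 14.1 in marrow against 91.4 in fetal liver, a difference of 3.12 ± 0.33, or 8.67-fold higher in fetal liver, at position 61 from that side. Its second probe was dim in bone marrow at 3.59 and read 47.8 in fetal liver, at least 5.16-fold higher. Both Bank1 probes thus had the same direction, and the bone marrow level lay at or near the background on each. With normexp the difference was 1.43.

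Most other genes of pre-B and B cell receptor signalling, like most genes measured, differed by less than 2-fold. Of 22 genes in the list, 19 were measured, 2 counted towards marrow and 0 towards fetal liver, with a median of -0.20. The backgrounds over all genes were 8.12% and 6.69%. Cd72, a co-receptor that dampens B cell receptor signals, read 2493 and 73.7, a difference of -4.66 ± 0.21 or 25.4-fold, its other probe gave -4.84, and normexp gave -3.95. Lat2, a membrane adaptor also found in myeloid and mast cells, read 1065 and 133, a difference of -2.59 ± 0.21 or 6.02-fold. The receptor chain gene Cd79b was at 4030 and 3974, a difference of 0.40 ± 0.20. Cd79a and the kinase gene Blk were dim on both arrays. With spike-in scaling 6 of the list passed 2-fold in bone marrow.

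Ebf1 and Pax5, the specification and commitment factors of the B lineage, were dim on both arrays by every probe. Ebf1 read 2.83 in marrow against 2.46 in fetal liver. The first Pax5 probe read 2.74 and 3.04 and the second 2.47 and 1.99. The medians of the negative control spots were 2.70 and 2.27, so these signals were at the level of spots with no target, and no direction can be drawn from them.

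Factors that act before or beside them were mostly measured, and most, like most genes measured, differed by less than 2-fold. Of 22 B lineage and lymphoid transcription factors, 18 were measured, with a median of -0.34. Of these, 1 counted towards marrow and 0 towards fetal liver, against 8.12% and 6.69% of all genes measured. The 1 was Lmo2, a partner of stem cell transcription factors, at 29947 and 10565, a difference of -1.09 ± 0.20 or 2.12-fold. Tcf3, which encodes the E proteins that act upstream of Ebf1, differed by 0.26, Ikzf1 (Ikaros) by 0.34 (-0.85 by its other probe) and Foxo1 by -0.08. Ikzf3, Lef1, Spib and Pou2af1 were dim on both arrays. With spike-in scaling 3 of the list passed 2-fold in bone marrow.

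Ly6d, a surface protein of lymphoid progenitors and B cells, read 114 in marrow against 7.42 in fetal liver, where it was dim. It was therefore at least 8.71-fold higher in bone marrow, a bound of -3.12, at position 105 from the bone marrow side. With normexp the value was -0.98 and the 2-fold call was lost. Of 11 other Ly6 family genes with a probe, 10 were measured, with a median of -1.13. Of these, 5 counted towards marrow and 1 towards fetal liver, against 8.12% and 6.69% of all genes measured. Ly6k, the neighbour of Ly6d, read 114 and 5.41 (dim), at least 8.71-fold higher in bone marrow by its own probe, and -1.05 with normexp. Ly6c1 read 18432 and 2852, a difference of -2.28 ± 0.20, its other probe gave -4.30, and the mean over probes was -3.29. Ly6h went the other way, at 16.2 and 47.9, a difference of 1.98 ± 0.32 that was 0.76 with normexp. Its other probe was dim on both arrays, at 2.50 and 4.94. The mean over its probes, 1.03, passes 2-fold only through the level set for that dim probe.

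The genes of the sorted proteins were well above background in both groups. Kit read 4074 and 3063, a difference of 0.0047 ± 0.14 (-0.33 with spike-in scaling), while Ly6a, which encodes Sca-1, read 3846 and 594, a difference of -2.28 ± 0.20. All 18 receptor and signal genes of early lymphoid progenitors were measured, with a median of -0.41. Of these, 3 counted towards marrow and 2 towards fetal liver, against 8.12% and 6.69% of all genes measured. Those of the marrow included Ly6a and Cxcr4, the receptor that holds progenitors in the marrow, at 1428 and 299.8 or 3.57-fold. Those of the fetal liver were the homing receptor gene Ccr9, at 40.5 and 172, a difference of 2.51 (1.44 with normexp), and Il7r, the receptor of the lymphoid growth factor interleukin 7, at 22.5 and 42.3, a difference of 1.33 that was under 2-fold with spike-in scaling (0.995) and normexp (0.72). Flt3, the receptor that marks lymphoid-primed progenitors, differed by -0.89 by its brightest probe and by -1.14 by its other probe. With spike-in scaling 7 of the list passed 2-fold in bone marrow and 1 in fetal liver.

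**Figure D3:**
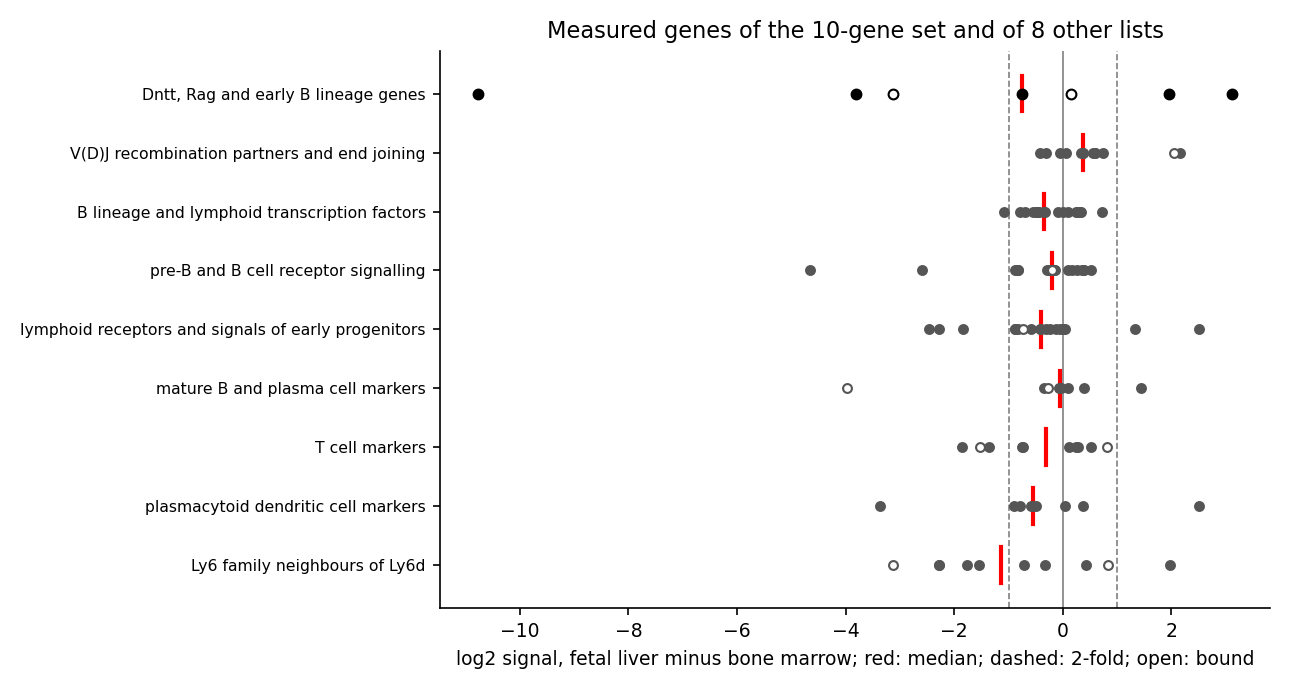
Log2 difference, fetal liver minus bone marrow, of each measured gene of the 10-gene set (top line) and of 8 further lists. Filled points are genes measured on both arrays, open points bounds, red bars list medians and dashed lines 2-fold, and the points of the end-joining list lie between the dashed lines except Polm and Lig4.

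Marker genes of other cells were read beside these values. In bulk samples, fewer cells that hold a transcript and less RNA per cell cannot be told apart. Of 12 mature B and plasma cell markers with a probe, 8 were well above background in marrow against 6 in fetal liver, and their summed scaled signal was 42.1 and 44.9. Most of both sums came from Cd79b, at 4030 and 3974, and Cd37, at 2720 and 1593. The defining markers Cd79a and Ms4a1 were dim on both arrays. Jchain, the joining chain of secreted antibody, read 206 in marrow against 2.31 (dim) in fetal liver, at least 15.7-fold higher, a bound of -3.97 that was -1.86 with normexp. The complement receptor gene Cr2 read 17.5 and 35.8, a difference of 1.45 ± 0.31 that its other probe gave as a bound of 0.44 and normexp as 0.61. Immunoglobulin constant region genes were not matched to a probe by name. Of 8 neutrophil markers, 8 and 6 were well above background, with summed scaled signals of 134 and 111. Of these neutrophil markers, 5 counted towards marrow and 0 towards fetal liver, against 8.12% and 6.69% of all genes measured. Their median was -1.18, the same direction as Dntt, Blnk and Ly6d. The granule genes Ngp and Lcn2 differed by -3.67 and -2.47, Camp by -1.09, and Retnlg and Mmp8 had bounds of -3.76 and -1.26. The bright calcium-binding genes S100a8 and S100a9 differed by 0.15 and -0.26. Of 5 erythroid markers, 3 and 4 were well above background with sums of 4.33 and 12.1. Among these 5, 2 counted towards fetal liver, against 6.69% of all genes measured. Of 7 macrophage markers, 4 and 3 were well above background with sums of 0.710 and 0.563. Of 5 hepatocyte markers, 2 and 2 were, with sums of 8.73 and 3.78. The hepatocyte genes Alb, Apoa1 and Ttr were dim on both arrays, while Afp read 1540 in marrow against 483 in fetal liver, 2.39-fold higher in marrow. The part of these cells in the differences of the 10 genes was not tested.

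Several of the 10 genes lie next to each other in the genome, and adjacent genes did not always differ alike. Blnk and Dntt are neighbours among the genes with a probe, and both were higher in bone marrow, at -3.82 and -10.77. On the other side of Blnk the next gene, Zfp518a, differed by 0.94 towards fetal liver, and beyond Dntt Opalin and Tll2 were dim on both arrays. Rag2 and Rag1 are also neighbours, with Traf6 beyond Rag1 at -0.15 and Prr5l at 0.90. Iftap, on the other side, has a gene model that overlaps that of Rag2 on the opposite strand. It read 9875 and 9812, a difference of 0.41 ± 0.20 against 1.96 for Rag2. Igll1 and Vpreb1 are neighbours, with Top3b at -0.02, Ppm1f at 0.33 and Spag6l at a bound of -1.20 (-0.11 with normexp). Beside Ly6d, Lynx1 differed by -1.76 ± 0.28 (-0.84 as the mean over its probes, -0.61 with normexp) and Slurp2 by 0.16. Beside Bank1, Slc39a8 differed by 0.23 and Ppp3ca by 0.79, both under 2-fold. The nearest genes around Ebf1 ran from -0.06 to 0.60 and those around Pax5 from -0.23 to 0.50.

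**Figure D4:**
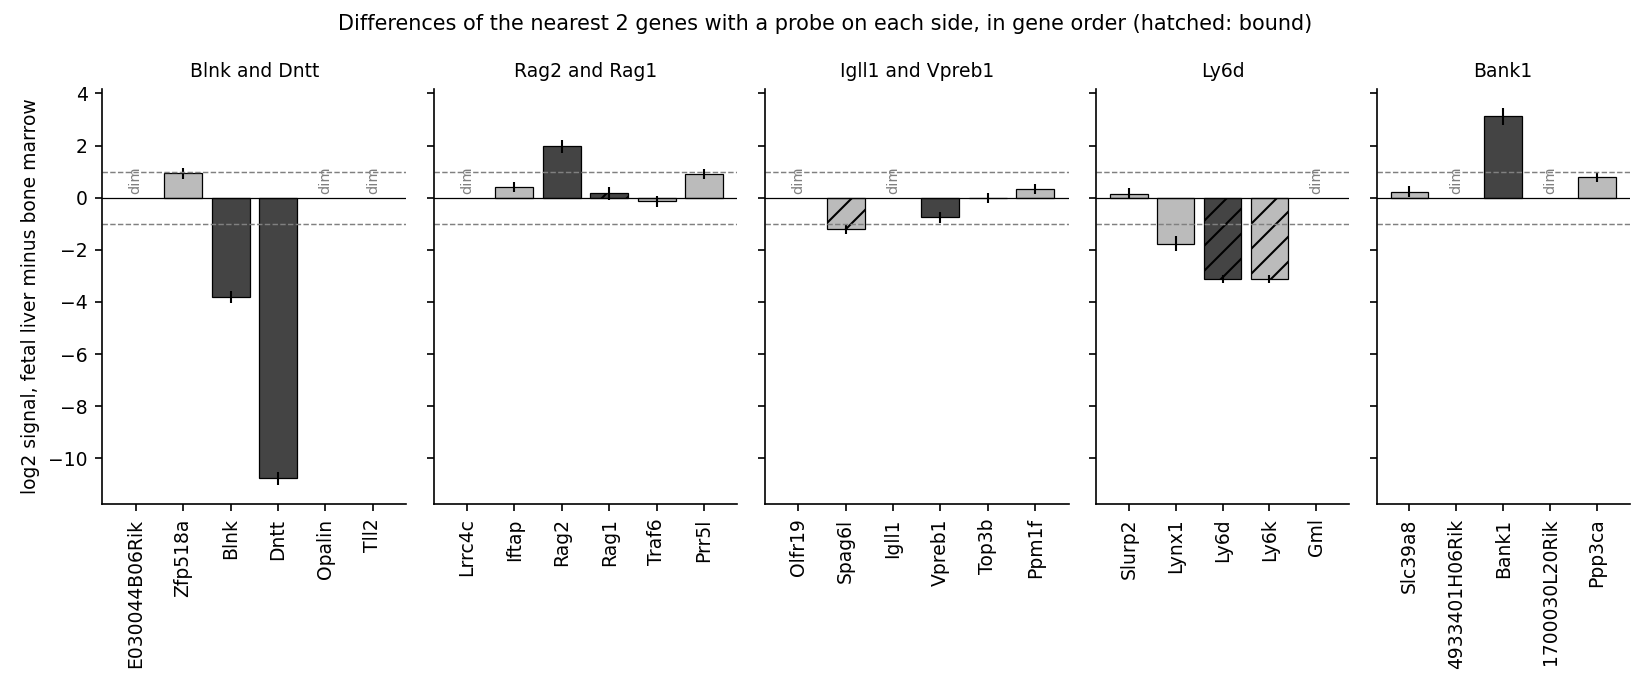
Log2 difference, fetal liver minus bone marrow, of the genes (dark bars) and of the nearest 2 genes with a probe on each side (light bars), in gene order. Hatched bars are bounds, error bars technical errors and dashed lines 2-fold, and genes dim on both arrays carry no bar, so that Blnk and Dntt stand together below the line while Zfp518a lies above it.

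Among genes well above background on both arrays, the 5 nearest to Dntt in difference were Bhlhe40 at -6.09 (68.1-fold), Hcar2 at -5.98, Npdc1 at -5.91, H2-Q8 at -5.84 and Myl10 at -5.60. H2-Q8 is 1 of a family of near-identical class I genes that may share signal. Their gaps to Dntt ran from 4.68 to 5.17 on the log2 scale. With normexp their order changed, with Bhlhe40 at -3.75, Hcar2 at -3.76, Npdc1 at -3.64, H2-Q8 at -4.77 and Myl10 at -5.19. Hcar2 was -4.26 as the mean over its probes. Likeness here is over 2 arrays and orders genes by size of difference alone. Under the 7 processing alternatives the Dntt difference ran from -11.10 to -8.96 and that of Blnk from -4.15 to -2.76, both past 2-fold throughout. Both genes have 1 probe, measured on both arrays. For such genes the mean over probes, no filter and both-arrays settings cannot change the value. Median scaling and the authors' table barely moved it, so the ranges rest on spike-in scaling and normexp. Bank1 ran from 1.43 to 3.12 and Rag2 from 1.02 to 1.97, also past 2-fold throughout. The 1.02 of Rag2 passes 2-fold only through the level set for its dim probe.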

How the data were processed

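LSK cell RNA from bone marrow and fetal liver was hybridised as 1 Cy3 array per group. The deposited spot intensity values came, per the file headers, from Agilent Feature Extraction 10.7.1.1, with background and spatial trend removed and no scaling between arrays. The deposited series table holds a linear ratio made by the authors, which equals that signal over 178.6 for bone marrow and 133.9 for fetal liver, for 99.99% of probes printed as 1 spot (within 0.1%). Its column medians were 0.0589 and 0.0604.

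From these files, control and outlier spots (137 and 122) were left out, spots of a probe averaged, log2 taken and the array's 75th percentile (178.9 and 134.0) subtracted. Probes were named by accession through a RefSeq gene table of GRCm38.p6, used only for names and gene order because the array design is on mm9. A gene took its brightest probe and entered when well above background on at least 1 array. With 1 array per group there was no test, and the number of arrays limits the precision. The call was a 2-fold difference. Technical errors had a median of 0.20 per difference. Named were every probe of the 10 genes, up to 4 genes past 2-fold from each list, Kit and Ly6a, the nearest 2 genes on each side, and the 5 genes nearest to Dntt. Some list members are not reported here by name. A few other list members were named after their values were seen. The 10 genes and the lists were chosen with earlier results of these data known.

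The 7 alternatives were spike-in scaling, median scaling, normexp background correction (limma 3.58.1, offset 50), the authors' table, the mean over probes, no filter, and genes well above background on both arrays. Normexp used the median spot signal. For the mean over probes, signals under an array's lowest signal well above background were raised to it. The counting steps were tested on simulated data.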

Additional observations from a re-analysis of the deposited data

How the results depend on the processing

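No paired analysis was possible because each group has 1 array, and for the same reason no replicate could be left out. Of the 7 measured genes, 0 reversed under any alternative. A bound that would cross 0 was set to 0, so the bounds of Rag1 and Ly6d could not reverse with scaling or normexp. Rag1 stood at 0 with spike-in scaling. Several alternatives cannot change a gene with 1 probe that was measured on both arrays, such as Dntt and Blnk. Spike-in scaling took Vpreb1 past 2-fold (-1.08) and normexp took Ly6d below it (-0.98). Where genes well above background on both arrays alone were kept, Ly6d and Rag1 gave no value, by construction. Of the 10 genes, 3 counted towards bone marrow by a 2-fold difference, with 4 under spike-in scaling and 2 under normexp or with both arrays required. Those that counted towards fetal liver numbered 2 in all 7 alternatives. Under the mean over probes Rag2 was counted only through the level set for its dim probe.

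Over all genes, 1087 counted towards marrow and 896 towards fetal liver. Spike-in scaling gave 1739 and 508, and so lowered the share of calls higher in fetal liver from 45.2% to 22.6%, as its shift of -0.33 does by construction. Normexp gave 606 and 379. Spike-in scaling also raised the bone marrow counts of the transcription factors from 1 to 3, T cell markers from 3 to 5, lymphoid receptors from 3 to 7, plasmacytoid dendritic markers from 1 to 3 and pre-B signalling from 2 to 6, and lowered the fetal liver count of lymphoid receptors from 2 to 1. Normexp lowered the fetal liver counts of the Ly6 family from 1 to 0, V(D)J genes from 2 to 1, lymphoid receptors from 2 to 1 and mature B markers from 1 to 0. The mean over probes took that of mature B markers to 0. Requiring both arrays took the fetal liver count of V(D)J genes to 1 and the bone marrow count of mature B markers to 0, since Lig4 and Jchain are bounds. The calls lost with normexp were Ly6h (0.76), Lig4 (0.80), Il7r (0.72) and Cr2 (0.61), and why was not tested. Under the mean over probes Cr2 was 0.94, the average of 1.45 and the bound of 0.44 from its other probe. Signals near background limit what can be said of Rag1, Rag2, Igll1, Ebf1 and Pax5. They also limit the sizes given for Bank1, at 14.1 in bone marrow, and Ly6d, dim at 7.42 in fetal liver. The same holds for the size of the Dntt difference, with 23.4 in fetal liver and -8.96 under normexp.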

Other observations

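Markers of other lymphoid fates were also read beside the 10 genes. Of 15 T cell markers, 10 were measured, 3 passed a 2-fold difference towards marrow and 0 towards fetal liver, with a median of -0.31. The backgrounds over all genes were 8.12% and 6.69%. Of the 10 differences, 5 were below 0 and 5 above. Cd28, a co-stimulatory receptor, read 593 and 122, a difference of -1.87 ± 0.21. Lat, an adaptor of T cell receptor signalling, read 1562 and 459, a difference of -1.35 ± 0.20. Cd3d, a chain of the T cell receptor complex, read 37.6 in bone marrow and was dim in fetal liver at 6.99, at least 2.87-fold higher in bone marrow, a bound of -1.52 that was -0.26 under normexp. Other chains of that complex went the other way, with Cd3e at 838 and 898, a difference of 0.52 ± 0.20, and Cd3g at a bound of 0.81. Cd4 and Cd5 differed by 0.23 and 0.29. Cd8a, Cd8b1, Ptcra, Cd2 and Trat1 were dim on both arrays, so the pre-T receptor chain gene Ptcra was no more measurable than Igll1.

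Of 10 plasmacytoid dendritic cell markers with a probe, 9 were measured, with a median of -0.55. Lair1, an inhibitory receptor for collagen, read 542 and 39.3, a difference of -3.37 ± 0.22, while its other probe gave a bound of -0.86, the mean over probes -2.12 and normexp -2.28. Siglech, a defining marker of plasmacytoid dendritic cells, differed by 0.04. Ccr9 was the 1 gene of the list past 2-fold towards fetal liver, against 6.69% of all genes measured. The summed scaled signal of the list was 329 in bone marrow and 319 in fetal liver.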
